A study of Drosophila melanogaster with 3 samples.

Results

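The regions described here are tandem groups of peaks, called chains, in which 3 or more peaks bound by a GFP-tagged Hr78 protein follow each other along a chromosome arm of Drosophila melanogaster. Peaks were sorted by position on 6 sequences, the arms 2L, 2R, 3L and 3R and the chromosomes X and 4, all called arms here, and neighbours were joined when at most 500 bp lay between the end of one and the start of the next. Chains held 670 peaks in 199 groups, out of 4701 peaks on the 6 arms and 4851 in the whole list. A further 1018 peaks lay in 509 pairs and 3013 were single, with no other peak within the limit.

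Hr78 is an orphan nuclear receptor of insects whose vertebrate relatives include the testicular receptors TR2 and TR4. Nuclear receptors bind DNA through a zinc-finger domain that reads short hexamer half-sites, and several half-sites or several receptors can lie within one regulatory region. Hr78 is required for the ecdysone-dependent steps that lead from larva to pupa, and it can bind a subset of the sequences that the ecdysone receptor binds.

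The study used chromatin immunoprecipitation and sequencing (ChIP-seq), in which DNA bound by a protein is pulled down with an antibody and sequenced. It has 3 libraries, which are 2 ChIP replicates made with a rabbit polyclonal antibody against GFP and 1 library of input DNA. All came from wandering third-instar larvae of the strain Hr78-GFP, of unknown sex and of genotype PBac{y[+]-attP-3B}VK00037, with a transgene that holds the Hr78 genomic coding region, and the culture protocol in the labels names y; bw cn sp flies. Larvae were grown at 25 °C and cross-linked whole in 1.8% formaldehyde for 15 min, so a peak can come from any tissue of the animal, and peaks of 1 chain need not be bound in the same cells. All values come from a single peak list that covers the series. It holds no value per library, so the spread between replicates and the sequencing depth are unknown, and chains were chosen by the positions of these same peaks, so everything below is a description and no test was run.

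Most chains were short. Of the 199 chains, 151 had 3 peaks, 30 had 4, 12 had 5, 5 had 6 and 1 had 7. The median chain spanned 2274 bp from its first to its last base, with quartiles at 1732 and 3074.5 bp, and chains ranged from 923 to 7608 bp. Peaks filled a median of 79.4% of this span, and the rest was the gaps between them. Pairs spanned a median of 1193 bp and single peaks 395 bp. Chains made up 14.3% of the peaks on the arms and 15.7% of the length that peaks covered.

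The group with the most peaks lay on 3R, in FlyBase release 5 coordinates from 13525642 to 13533121, and held 7 peaks over 7480 bp. Their scores along the coordinate were 34.04, 13.08, 11.86, 24.58, 16.04, 19.94 and 20.68, as the authors scored the peaks; what the score measures is not stated in the labels or the file. The first peak was both the highest and the widest, at 2671 bp, and the other 6 were 236 to 903 bp wide. The gaps between them measured 128, 176, 265, 104, 268 and 50 bp. The nearest other chain was 460309 bp away.

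The 5 chains of 6 peaks did not share one order of strong and weak peaks. On X, from 1510395 to 1516214, the first peak scored 35.42 and the other 5 scored 9.02, 8.23, 8.23, 11.86 and 13.71. On 3L, from 15525679 to 15529866, the scores were 10.4, 19.94, 16.64, 11.42, 29.54 and 14.88, so the peak in place 5 was highest. On 3R, from 12031993 to 12036262, they were 13.08, 21.83, 14.03, 26.21, 11.86 and 15.35, with the highest in place 4. The chains on 2R were flatter. From 6425160 to 6431123 the scores were 19.2, 7.98, 14.36, 16.02, 12.16 and 10.11, and from 20827458 to 20831872 they were 13.08, 9.02, 14.36, 12.77, 11.26 and 15.35. In 3 of these 5 chains the highest score was less than 5 above the second.

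The 12 chains of 5 peaks spanned 2377 to 5503 bp and had highest scores of 15.35 to 124.48. The strongest of them lay on 3R from 27044081 to 27049133, with scores of 23.26, 124.48, 52.37, 39.19 and 9.72, and 3 of its peaks were among the 1000 highest of the whole list, which are those with a score of 33.59 or more. No other chain held 3 such peaks. On X, from 3635177 to 3640625, a peak of 103.11 followed one of 47.65, and the other 3 peaks scored 6.76 to 10.68. On 2L, from 11057899 to 11062729, peaks of 47.65 and 60.06 were separated by weaker peaks of 11.86 and 19.57. The second chain of 5 on 2L with 2 such peaks, from 6084913 to 6089313, had its strong peaks side by side, with scores of 41.62 and 42.11 and 51 bp between them. The weakest chains of 5 had no peak above 20. They lay on 3L from 1318548 to 1320924 and from 12401168 to 12403761, on 3R from 4878650 to 4882638 and on X from 2194569 to 2197966, with highest scores of 15.35, 18.6, 17.05 and 19.57. The remaining 4, on 2L from 483476 to 488978, on 3L from 3244635 to 3249446 and from 13995338 to 14000021, and on 3R from 12059747 to 12064500, had highest scores of 23.39, 36.58, 32.68 and 33.86.

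**Figure D1:**
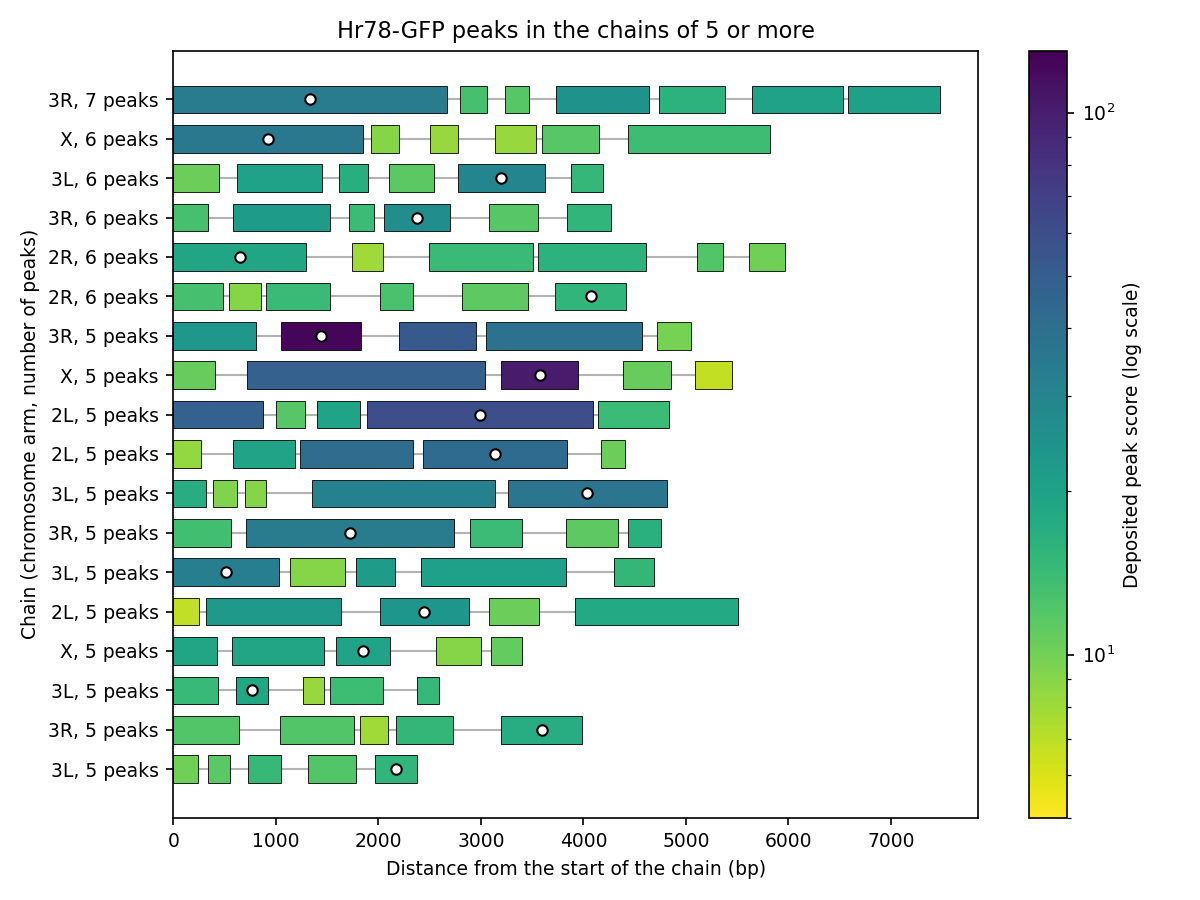
Each row is 1 of the 18 chains of 5 or more peaks; boxes are peaks drawn to scale against the distance from the start of the chain in bp, shaded by the deposited score on a log scale, and a white dot marks the highest-scoring peak. The dot sits in an end peak in 8 chains and in an internal peak in 10.

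Peaks within chains were spaced like peaks within pairs. The 471 gaps inside chains had a median of 210 bp and quartiles of 104.5 and 317.5 bp, and the 509 gaps inside pairs had a median of 203 bp and quartiles of 99 and 318 bp. Both are bounded above by the limit of 500 bp that joined the peaks. They also had a common lower bound, since no neighbouring peaks on the 6 arms overlapped and none lay closer than 50 bp. Of the 17 gaps of exactly 50 bp, 9 were inside chains and 8 inside pairs. Gaps under 100 bp made up 23.4% of those in chains and 25.3% of those in pairs.

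Gaps were alike at the ends and inside of chains. In the chains of 3, the first and the second gap both had a median of 206 bp. In longer chains the gaps next to an end had a median of 236 bp and the gaps further inside one of 200 bp, with wide and overlapping interquartile ranges of 128 to 330.25 bp and 113 to 341 bp. The gaps of 1 chain were often unequal. The larger gap of a chain of 3 was a median of 2.21 times the smaller one, and 66 of the 151 chains (43.7%) had gaps within 2-fold of each other. Measured between centres, neighbours in chains were a median of 764 bp apart (quartiles 584.5 and 983.75 bp), and those in pairs 721.5 bp. Across the 471 neighbours in chains, the gap and the higher of both scores had a Spearman rho of -0.00065. Between the scores of neighbours it was 0.064; links of 1 chain share peaks and are not independent.

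**Figure D2:**
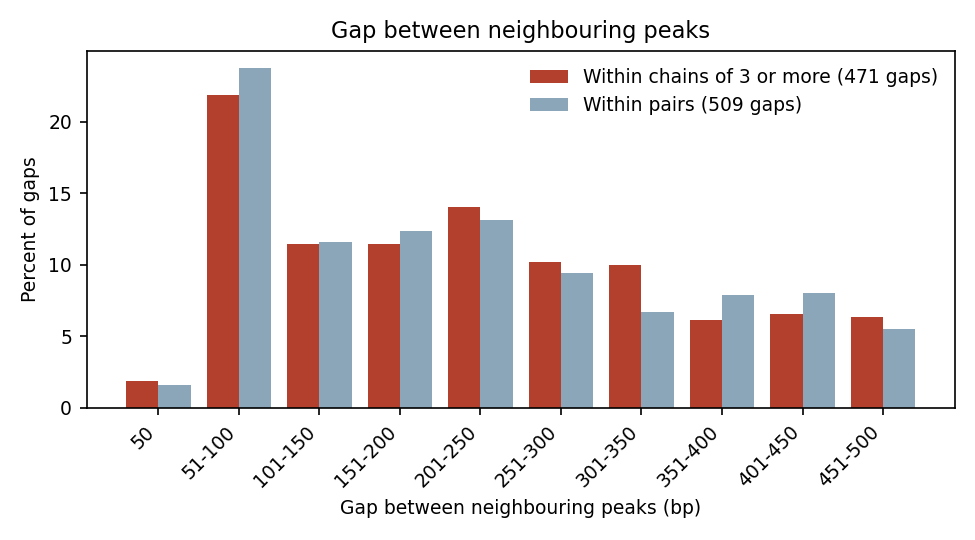
The bars give the percentage of gaps in each class of gap length in bp, for links inside chains of 3 or more and inside pairs. In both, the class of 51 to 100 bp is the fullest, with 21.9% of gaps in chains and 23.8% in pairs.

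The limit cuts through a continuous range of distances. The chains nearest inside it had largest gaps of 499 bp (2R, 6425160 to 6431123, 6 peaks), 498 bp (2R, 9879240 to 9882151, 3 peaks) and 495 bp (3R, 27569436 to 27571554, 3 peaks). Nearest outside it, 2 pairs on 3R from 13504112 to 13508231 stayed apart at 502 bp. A single peak stayed apart from a chain of 3 at 503 bp on 2R, from 5747154 to 5749573, and a pair from a single peak at 505 bp on 3R, from 4645253 to 4647678. In all, 28 chains had a largest gap over 450 bp, and 23 further joins would have made or extended a chain had the limit been 550 bp.

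The highest-scoring peak was spread over the places of a chain. Every chain had 1 highest peak, with no tie. In the 151 chains of 3 it was the first peak 47 times, the middle peak 51 times and the last peak 53 times. In the 30 chains of 4 it was found 8, 8, 6 and 8 times from the first place to the last, and in the 12 chains of 5 it was found 1, 3, 3, 2 and 3 times. Over all chains the highest peak was internal in 75 of 199 (37.7%, exact 95% binomial interval 30.9% to 44.8%). This interval covers counting error only. Internal places made up 40.6% of all places, a share in which a long chain weighs more than a short one. In chains of 3, which weigh alike, internal places made up 33.3% and the highest peak was internal in 33.8%. Among the 78 chains with a peak in the 1000 highest it was internal in 31 (39.7%), and among the other 121 in 44 (36.4%). By arm the count was 13 of 25 chains on X, 10 of 30 on 2L, 14 of 44 on 2R, 14 of 44 on 3L, 21 of 51 on 3R and 3 of 5 on chromosome 4. In pairs the higher peak was the first in 248, the second in 258 and neither in 3.

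Scores along the chains of 3 took every shape. Middle peaks of chains of 3 had a median score of 14.03, against 12.77 for first and 12.46 for last peaks, and median widths of 471, 422 and 395 bp in the same order. Without ties, the middle peak was higher than both its neighbours in 50 chains of 3 and lower than both in 42, and the scores rose along the coordinate in 31 and fell in 23. The remaining 5 had a tie between lower peaks. The highest peak was also the widest in 139 of the 198 chains with 1 widest peak (70.2%), against 80.4% of pairs, where only 2 peaks compete. In the chains of 5 the peak in place 4 was the widest in 7 of 12, while it was the highest in 2; this was seen only after the counts were made, and 12 chains are few.

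**Figure D3:**
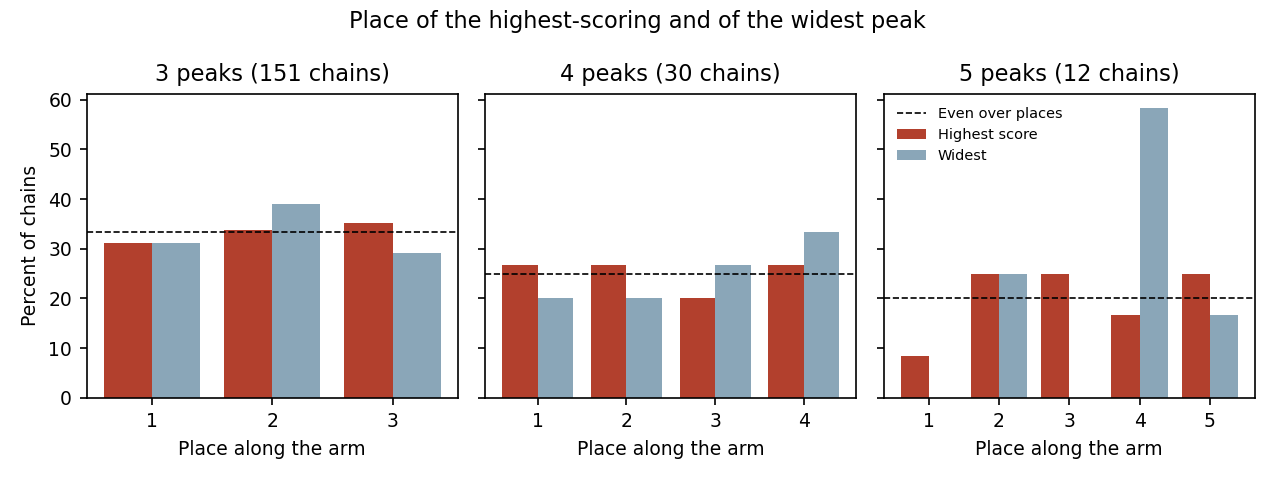
For chains of 3, 4 and 5 peaks, the bars give the percentage of chains in which each place, counted from the low to the high coordinate, holds the highest-scoring peak and the widest peak; the dashed line is an even share. In chains of 3 the highest peak is spread almost evenly, with 31.1%, 33.8% and 35.1%.

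Pooled over the arms, peaks in chains scored like peaks in pairs and somewhat lower than single peaks. The median score was 13.46 in chains, 13.4 in pairs and 14.68 among single peaks, and the upper quartiles were 21.83, 22.1 and 29.6. Of the 670 peaks in chains, 96 (14.3%) were among the 1000 highest, against 155 of 1018 in pairs (15.2%) and 673 of 3013 single peaks (22.3%); the share over all peaks of the 6 arms was 19.7%. Among the 20 highest peaks of the list, 19 lay on the arms, with 3 in chains (15.8%), 4 in pairs and 12 single. Of the 100 highest, 92 lay on the arms and 13 of these in chains (14.1%). Of the 500 highest it was 42 of 446 (9.42%), where chains held 14.3% of all peaks on the arms. The lower share of chains was thus seen in the 500 and 1000 highest but not in the 20 and 100 highest. The median width was 440 bp in chains, 413 bp in pairs and 395 bp among single peaks, and 15.1%, 12.5% and 11.9% of peaks were 1000 bp wide or more. The order of the widths turns when peaks are joined by centres at most 1000 bp apart, a measure that leaves wide neighbours out, with medians of 358 bp in chains, 371.5 bp in pairs and 430 bp among single peaks. Within arms, under the limit of 500 bp, the median width was larger in chains than among single peaks on every arm. Pairs were wider than chains on X (508 and 460 bp), 2R (424.5 and 409 bp) and 3L (451 and 391 bp). They were narrower than chains on 2L, 3R and chromosome 4. The rise of score with width was alike in the 3 classes, with a Spearman rho of 0.76 in each.

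Median scores showed no steady order with the length of a chain. The median score was 13.08 in chains of 3, 13.4 in chains of 4, 15.02 in chains of 5 and 13.4 in chains of 6, and the 1 chain of 7 had a median of 19.94. Across the 199 chains, the number of peaks and the highest score had a Spearman rho of 0.047. The highest peak of a chain had a median score of 27.89, against 19.94 for pairs and 14.68 for single peaks, an order that the choice of the highest of more peaks favours. The lowest peak had a median score of 9.56 in chains and 10.68 in pairs.

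Scores were also set beside a Poisson series, the set of values −log10 P for the chance of exceeding each whole count at a given background mean. Reading a score as a count this way is an assumption, since the labels and the file do not define the score. A score was taken as on the series of the best mean, 66.9 counts, when it lay within 0.0105 of a member. The best mean was the one that placed the most of these same scores on the series. The share that would lie there by chance was not measured. On the series were 81.6% of peaks in chains, 78.2% in pairs and 78.4% of single peaks, with 78.8% over all peaks of the arms. The arms differed more, with 96.6% of peaks in chains and 94.6% of single peaks on X, against 75.2% and 76.8% on 3L. The share was higher in chains than among single peaks on X, 2L, 3R and chromosome 4, and lower on 2R and 3L. Read as counts, peaks on the series had a median pile-up of 2.03 times that best mean in chains. The median was 2.03 in pairs and 2.09 among single peaks, and peaks off the series have no such value.

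**Figure D4:**
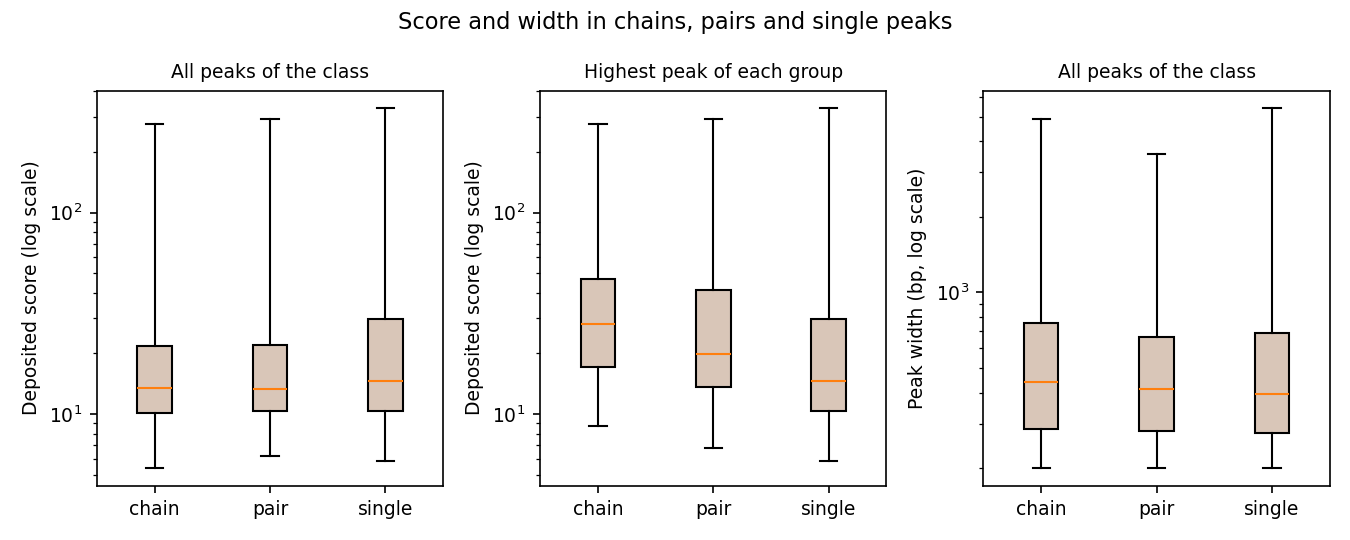
Boxes give the median and quartiles, and whiskers the extremes, of the deposited score of all peaks, of the score of the highest peak of each group, and of the peak width in bp, all on log axes, for chains, pairs and single peaks. Pooled over the arms, scores of all peaks are alike in chains and pairs, with medians of 13.46 and 13.4. Single peaks have a higher upper quartile, at 29.6.

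Of the chains, 39.2% held a peak among the 1000 highest, against 28.3% of pairs and 22.3% of single peaks, though a group of more peaks has more chances to hold one. In 121 of 199 chains (60.8%) there was no such peak, in 61 there was 1, in 16 there were 2 and in 1 there were 3. Over all chains the highest score exceeded the second by a median of 9.77, and this difference was under 5 in 68 chains and over 100 in 15. Of the chains with no peak among the 1000 highest, the weakest, whose highest score was 8.77, was found on 3R at 12070989 to 12072286; it was picked out after its value was seen. The shortest chains were also weak. They were on 3L from 17905744 to 17906666 (923 bp; scores 7.48, 9.02 and 9.84), on 2L from 16491974 to 16492955 (982 bp; 8.23, 7.0 and 9.56) and on 3R from 10917595 to 10918614 (1020 bp; 11.56, 11.26 and 7.98).

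The 10 chains with the highest peaks all had 3 peaks, and in each the highest peak was the widest. The strongest lay on 3R from 11923320 to 11926425, where peaks of 17.39 and 34.96 preceded one of 274.35 that was 1687 bp wide. On 2L, from 6454080 to 6456792, peaks of 9.28 and 11.86 preceded one of 230.13. The next on 3R, from 1416419 to 1418734, had the opposite order, with 227.15 followed by 12.46 and 7.98, and so did the chain on 3R from 14068968 to 14072647, with 171.56, 19.94 and 14.12. In these 4 chains the strong peak stood at an end, with weak peaks on one side. It stood in the middle on 2R from 6004166 to 6006338, with 9.02, 202.06 and 10.11, on X from 1935380 to 1937831, with 10.97, 163.79 and 7.98, and on 2L from 5291185 to 5295421, with 11.56, 158.41 and 35.84. The other 3 of the 10 lay on chromosome 4. In 9 of the 10 the highest score exceeded the second by more than 100, a difference that picking chains by their highest score favours.

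In 11 chains of 3, 2 peaks were among the 1000 highest, and in 4 of these the third and weakest peak lay between them. The longest chain, on 2L from 2196099 to 2203706 with a span of 7608 bp, had scores of 77.7, 10.97 and 87.47, and its first peak alone was 4880 bp wide. On 3R, from 16603803 to 16611025, a span of 7223 bp held scores of 128.04, 20.68 and 123.06. In both, the outer peaks were of like height and the middle one far lower.

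All arms had chains, and the share of peaks in chains lay between 12.5% and 15.5%. The shares spread more under other settings, from 6.19% on chromosome 4 to 12.7% on 3L with centres at most 1000 bp apart, and from 2.44% on 2R to 5.89% on 3R with the 2396 peaks that scored 14.03 or more. In chains of at least 4 peaks the share ran from 0% on chromosome 4 to 6.15% on 3R. At the limit of 500 bp with all peaks, it was 15.5% on chromosome 4 (15 of 97), 15.1% on 3R (177 of 1170), 15.1% on 3L (149 of 990), 14.5% on 2R (142 of 980), 13.1% on X (88 of 673) and 12.5% on 2L (99 of 791). Pairs differed more, with 41.2% of the peaks of chromosome 4, 15.8% of those of X and 21.0% to 23.4% of those of the other arms. Of the peaks in any group, chains therefore held 45.4% on X and 27.3% on chromosome 4, against 36.0% to 41.7% elsewhere. With each arm's length taken as its last peak end, X had 1.14 chains per Mb, 2L had 1.31, 3L had 1.79, 3R had 1.83, 2R had 2.08 and chromosome 4 had 3.71.

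X had the fewest chains per Mb and, for its number, the most long ones. Of its 25 chains 9 had 4 or more peaks, against 16 of 51 on 3R, 11 of 44 on 3L, 6 of 30 on 2L and 6 of 44 on 2R. The 5 chains of chromosome 4 all had 3 peaks. Median scores of peaks in chains were 45.04 on chromosome 4, 15.35 on 2L, 14.36 on X, 13.4 on 3R, 12.77 on 3L and 12.31 on 2R. Those of single peaks were 36.12 on chromosome 4, 14.99 on 2L, 17.76 on X, 14.03 on 3R, 14.03 on 3L and 14.11 on 2R. Chains thus scored below single peaks on 4 arms and above them on chromosome 4 and 2L. In pairs the medians were 14.52 on chromosome 4, 12.46 on 2L, 15.35 on X, 12.77 on 3R, 13.53 on 3L and 14.36 on 2R. Chains scored above pairs on chromosome 4, 2L and 3R and below them on X, 3L and 2R. Peaks among the 1000 highest made up 53.3% of those in chains and 52.4% of single peaks on chromosome 4, 20.5% and 29.6% on X, and 16.2% and 22.9% on 2L. They made up 15.3% of those in chains and 19.3% of single peaks on 3R, 10.1% and 18.6% on 3L, and 8.45% and 21.5% on 2R.

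Every chain of chromosome 4, a small and largely heterochromatic autosome, held a peak among the 1000 highest. From 63586 to 65945 the scores were 16.02, 208.67 and 45.04, and from 149849 to 152986 they were 9.84, 103.11 and 61.12. From 378672 to 380919 they were 7.73, 22.21 and 128.04. From 679749 to 685249 they were 193.89, 150.07 and 12.46, and 150.07 is the highest second score of any chain. From 1046469 to 1049862 they were 15.68, 190.65 and 7.98. The highest peak was in the middle in 3 of these 5 chains, first in 1 and last in 1, and 8 of the 15 peaks (53.3%) were among the 1000 highest, close to the 52.4% of the single peaks of chromosome 4.

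**Figure D5:**
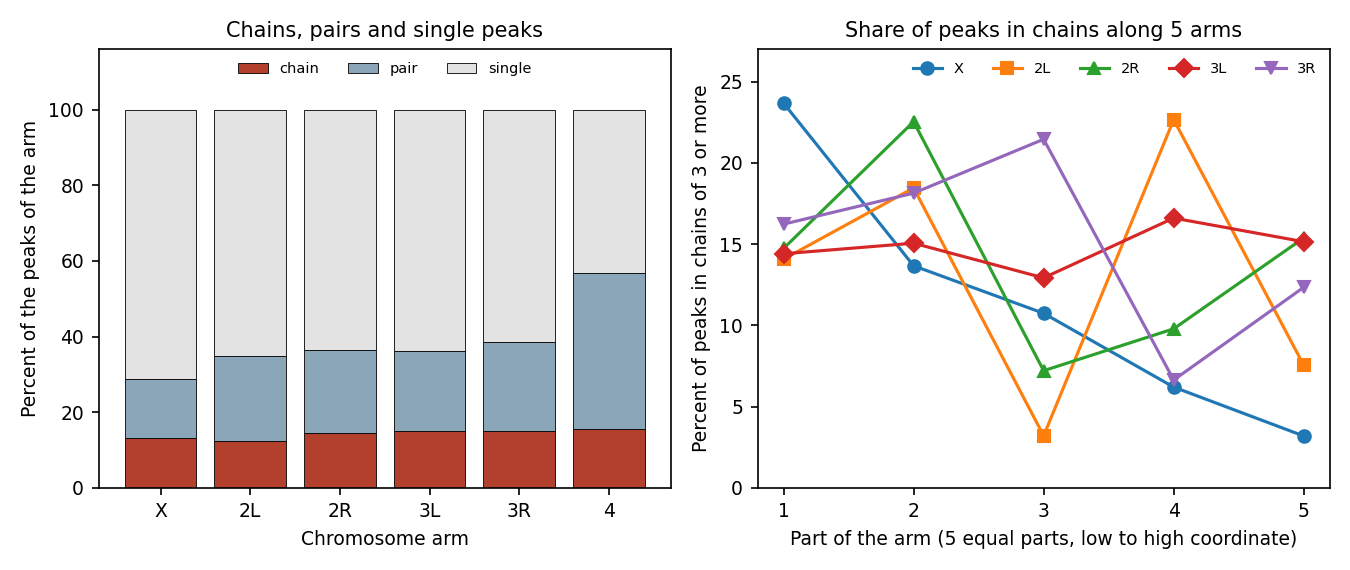
The left panel gives, for each chromosome arm, the percentage of its peaks in chains, in pairs and single; the right panel gives the percentage of peaks in chains in each of 5 equal parts of the 5 large arms, from low to high coordinate. Chains hold 12.5% to 15.5% of the peaks of every arm, and on X their share falls from 23.7% in the first part to 3.19% in the last.

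Along the 5 large arms, chains were uneven. With each of the 5 large arms cut into 5 parts of equal length, X had 23.7%, 13.7%, 10.7%, 6.20% and 3.19% of its peaks in chains from the low to the high coordinate, with 12, 6, 4, 2 and 1 chains. The first part of X lies at its telomere and the last at its centromere, and its peaks numbered 190, 139, 121, 129 and 94. None of the other 4 large arms showed such an order. On 2L, part 3 had 3.21% and part 4 had 22.7%, on 2R the shares ran between 7.21% and 22.5%, on 3R between 6.64% and 21.5%, and on 3L they were nearly level at 12.9% to 16.6%.

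Chains lay in peak-rich surroundings. The nearest peak outside a chain was a median of 1901 bp away, against 3152 bp for pairs and 4766 bp for single peaks, and 14.6% of chains, 20.8% of pairs and 31.0% of single peaks had no other peak within 10 kb. Windows of 100 kb with more than 14 peaks numbered 47 and held 18.3% of all peaks on the arms and 36.0% of the peaks in chains. In them 28.1% of peaks were in chains, against 11.2% in the other windows; more peaks per window bring more of them within 500 bp of each other. An exception lay on 2L from 15911261 to 15913735, a chain of 3 whose nearest other peak was 148452 bp away and whose highest score was 33.13.

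Some chains followed each other closely. Of the 199, 49 (24.6%) lay within 10 kb of another chain, and the median distance to the nearest one was 83903 bp. The closest were 748 bp apart on 3R, where a chain of 3 from 5905934 to 5909015 was followed by a chain of 4 from 5909764 to 5916078, with highest scores of 53.32 and 81.83. On 3R, the window from 12000001 to 12100000 held 37 peaks, the most of any 100 kb, and 20 of them were in 5 chains, of 6, 3, 5, 3 and 3 peaks. The last 4 of these chains lay between 12056678 and 12072286, at most 1852 bp apart, with highest scores of 22.99, 33.86, 83.07 and 8.77.

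In windows of 1 Mb, 84 of 122 held a chain and 9 held 5 or more. The fullest were 2R from 7 to 8 Mb with 7 chains and 22 of 74 peaks in chains, X from 1 to 2 Mb with 6 chains and 22 of 77, 2R from 6 to 7 Mb with 6 chains and 21 of 62, and 3R from 5 to 6 Mb with 6 chains and 20 of 93. On 2L the fullest was the first Mb, with 5 chains, on 3L it was 17 to 18 Mb, with 5, and on chromosome 4 the first Mb, with 4. In the 2R window from 7 to 8 Mb, 3 of the 7 chains lay close together from 7085895 to 7095271 and 2 others, 1508 bp apart, from 7518302 to 7524363. The other 2, from 7480056 to 7482853 and from 7501509 to 7504111, were 18655 and 14190 bp from their nearest chain.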

How the data were processed

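The 2 ChIP libraries and the input library share 1 list of peaks deposited for the whole series. Per the file headers, positions are in FlyBase release 5 and the caller was MACS; the submitters' processing notes name BDGP5, MACS2, BWA and CASAVA (1.7.0.2 and 1.7.0.3) without saying what each was used for. The deposited list gives a start, an end and a score per peak, made by the authors; how the score is defined, the threshold and any pooling of replicates are not stated in these sources. The score is the authors' own value and was used to rank and describe peaks within the list and, where it followed a Poisson series, to read a pile-up. The series was searched over means from 20 to 200 in steps of 0.01, then 0.0005. Depth is unknown.

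Chains were built by edge distance, places counted along the coordinate, and arm length taken as the last peak end. The grouping was tested on simulated chains. Named regions are every chain of 5 or more peaks, the 10 with the highest peak, the 3 longest and 3 shortest, those nearest the limit, all on chromosome 4 and the fullest 1 Mb windows; a few others are named for an extreme seen in the values. Members, lists and settings were chosen with earlier results of these data known. Genes, motifs and sequences were not used here, since no genome or annotation of release 5 was at hand. Alternatives changed the gap limit, the peak set, the sequences, the distance measure and the smallest chain. Analyses used Python 3.11.15, numpy 2.4.6, scipy 1.17.1, pandas 2.3.3 and matplotlib 3.10.9.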

Additional observations from a re-analysis of the deposited data

Results flagged for a closer look

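Chains also appeared on sequence outside the 6 arms, which the descriptions above do not use. The same rule found 4 chains with 13 peaks among the 150 peaks there (8.67%), against 14.3% of the peaks on the 6 arms. They were noted because they lie in data outside the described set; the difference between the shares was not tested. On 2RHet, an assembled heterochromatic sequence, 3 peaks from 1621274 to 1623685 scored 95.19, 16.71 and 28.74. On 3RHet, 3 peaks from 1808366 to 1810249 scored 69.75, 14.36 and 48.17. On the unplaced sequence U, 3 peaks from 5289957 to 5292183 scored 21.56, 24.8 and 38.21, and on the mitochondrial genome 4 peaks from 1540 to 5223 scored 31.0, 27.33, 27.29 and 29.62. There is no value for the input library, so a background at these places could not be set beside them.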

How the results depend on the processing

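Of 91 alternative values, 13 results under 7 settings, 32 stayed, 59 moved and 0 reversed. A value stayed if it lay within 1.5 times (counts) or within the exact 95% interval of the reported share or median. For the score difference this was the interval of the chain median, with the single-peak median taken as fixed. These intervals treat peaks as independent. Only the score difference can change sign, so the other results could not reverse. Orders did turn, that of the widths with centres at most 1000 bp apart and that of the arms. Chromosome 4, with only 97 peaks and 5 chains as reported, went from the largest share of peaks in chains to the smallest in some settings. The median score of peaks in chains stayed below that of single peaks in all 7 settings. Adding the other sequences moved none of the results, but the shares by arm are computed within each arm and could not change. The values that moved follow. Shares of internal places count every place, so long chains weigh more in them than in shares of chains. With neighbours joined up to 250 bp there were 80 chains, 250 peaks, a median gap of 118 bp, an internal highest peak in 28.8% (internal places 36%) and a difference of -0.42 from single peaks. The share of peaks in chains was 4.46% (X), 5.44% (2L), 5% (2R), 6.06% (3L), 5.56% (3R) and 3.09% (4). With neighbours joined up to 1000 bp there were 1098 peaks, a median gap of 280 bp and an internal highest peak in 45.5%, where internal places make up 45.9%. The share of peaks in chains was 17.7% (X), 24.9% (2L), 24.8% (2R), 25.6% (3L), 22.2% (3R) and 26.8% (4). With the 2396 higher-scoring peaks (14.03 or more) there were 30 chains, 94 peaks, a median gap of 187.5 bp, an internal highest peak in 26.7% (internal places 36.2%), a median score of 20.68, a difference of -6.12 from single peaks and a median width of 688 bp. The share of peaks in chains was 3.27% (X), 5.28% (2L), 2.44% (2R), 2.47% (3L), 5.89% (3R) and 4.76% (4). With peaks at least 250 bp wide there were 123 chains, 411 peaks, a median score of 15.35, a difference of -2.41 from single peaks and a median width of 523 bp. The share of peaks in chains was 9.44% (X), 8.05% (2R), 12.5% (3L) and 11.7% (3R). With centres at most 1000 bp apart there was a median score of 12.16, a difference of -3.52 from single peaks and a median width of 358 bp. The share of peaks in chains was 9.06% (X), 9.86% (2L), 12.7% (3L), 11.5% (3R) and 6.19% (4). With at least 4 peaks there were 48 chains, 217 peaks and an internal highest peak in 50%, where internal places make up 55.8%. The share of peaks in chains was 5.94% (X), 3.41% (2L), 2.86% (2R), 5.05% (3L), 6.15% (3R) and 0% (4). These settings change by construction which peaks can join. No paired analysis was possible because the list has no value per replicate, and no replicate could be left out. The unknown depth limits how far weak peaks can be read.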
